A study of Mus musculus with 6 samples.

Results

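Lysosomes are the acidic compartments in which cells break down proteins, glycans and lipids that arrive by endocytosis, phagocytosis and autophagy. Their hydrolases work at the low pH that a vacuolar proton pump sets up, and the transcription factor TFEB and its relatives raise the expression of many lysosomal genes by binding E-box elements in their promoters. In liver, hepatocytes carry lysosomes for autophagy and lipoprotein turnover, while Kupffer cells and other macrophages rely on them to digest engulfed red cells. The genes described here are 36 lysosomal genes chosen by name for known function: 11 proteases, 9 glycan-degrading hydrolases, 5 genes of lipid breakdown and cholesterol egress, 5 membrane proteins, 3 proton pump subunits, the phosphatase Acp5, the growth factor gene Grn and Tfeb. All 36 were among the 24421 gene symbols in the count tables, and all 36 were among the 12622 genes with enough counts to test.

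RNA was sequenced from the liver of Townes mice, a line whose own adult globin genes were replaced by human alpha-globin and by linked gamma- and beta-globin genes. The SS genotype has the alleles Hbatm1(HBA)Tow and Hbbtm2(HBG1,HBB*)Tow, of which the second holds the sickle beta-globin gene, while the AS genotype has the sickle allele together with the normal allele Hbbtm3(HBG1,HBB)Tow, and were the comparison group. All mice were 7 months old, and each genotype had 3 libraries of total RNA. The labels state neither sex nor litter and do not say whether the libraries of a genotype came from separate animals, so p-values measure the spread between these libraries.

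The series asks how sickle cell disease injures liver and bile secretion. For the lysosomal genes, transcript levels in bulk SS and AS liver are compared here, which do not measure lysosomal protein or activity. Gene counts per library ran from 6971289 to 13700194 in SS and from 6670011 to 12658869 in AS, and the 36 genes took 49160 to 128298 of them in SS and 42562 to 81004 in AS. Levels below are CPM, counts scaled to a fixed library size with trimmed-mean factors. Hepatocyte markers were abundant in every library, with a summed level of 89317 to 130738 CPM in SS and 103857 to 153098 CPM in AS over 10 markers, although the urea cycle gene Ass1 among them stood under 1 CPM in each library. The closest pair of libraries was AS replicates 2 and 3 (3.98 chi-square units per gene, beside 27.9 to 170 for all remaining pairs), and SS replicate 3 and AS replicate 1 lay at the opposite ends of the first principal component. In bulk liver, fewer cells of a type and less RNA per cell cannot be told apart.

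None of the 36 genes passed the test between SS and AS liver, in either direction, by edgeR's quasi-likelihood test at a Benjamini-Hochberg adjusted p under 0.05 over all genes. The same test called 0.967% of all genes tested, 0.911% higher and 0.0555% lower. DESeq2 called 2 members higher, Ctsk and Atp6v0d2, and called 3.59% of all genes, 2.85% higher and 0.737% lower. Limma-voom called 0 members and 0.246% of all genes, 0.238% higher and 0.00792% lower. With the replicate number as a block, edgeR called 2 members higher, Cd68 and Atp6v0d2, and 3.64% of all genes, 2.91% higher and 0.737% lower. At an unadjusted p under 0.05, 4 members stood higher in SS (Ctsk, Atp6v0d2, Cd68 and Ctss) and 0 lower. Those 4 are 11.1% of the members, against 9.12% of all genes tested that were higher at that p and 3.58% that were lower. All 4 belong to a group of 5 members known from macrophages and osteoclasts, and the fifth, Acp5, had nearly equal levels in both genotypes. That group was chosen with earlier results of these data known.

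The differences were small for most members. Of the 36, 24 had a fitted log2 change above 0 and 12 below, and the median was 0.20, beside a median of 0.08 over all genes tested. For 24 members the 95% interval of the change lay wholly within a 2-fold difference in either direction, and for 12 it reached beyond it on at least 1 side. In 5 members the 3 SS libraries all lay above the 3 AS libraries (Ctsk, Tpp1, Scarb2, Atp6v0d2 and Tfeb), which is 13.9% of them against 12.1% of all genes tested. In 2 members, Ctsh and Lamp2, all SS libraries lay below all AS libraries, which is 5.56% against 9.04% of all genes. These shares are near those of all genes.

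**Figure D1:**
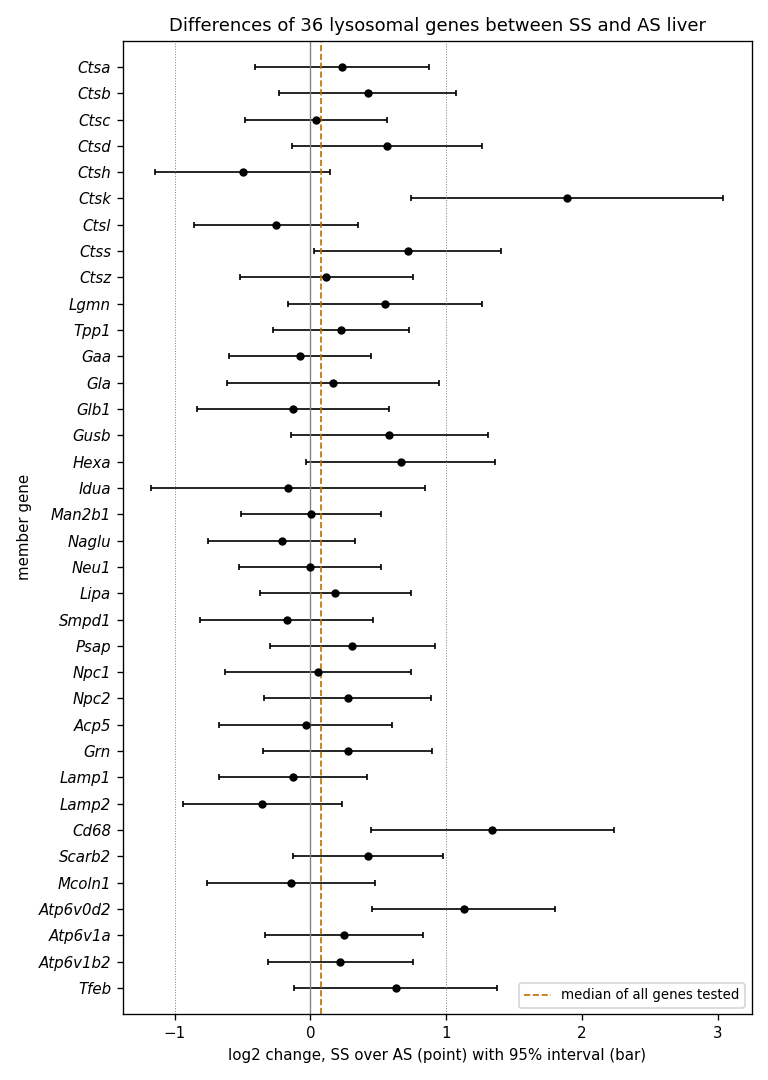
Each point is the fitted log2 change of 1 gene, SS over AS, with its 95% interval as a bar, the dotted lines mark a 2-fold difference and the dashed line the median of all genes tested. Ctsk, Cd68 and Atp6v0d2 have the highest values (1.89, 1.34 and 1.13), and the points of 24 genes lie above 0.

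The promoters of many lysosomal genes carry E-boxes, so the windows of RefSeq (build GRCm38.p6, 250 bases before to 50 after each start site) were searched for the core CACGTG, a palindrome that reads the same on both strands, and for the longer element GTCACGTGAC, which contains that core. The table held windows for 31 of the 36 genes. The core occurred in 11 of the 31 (35.5%), against 11.9% of the genes tested that had a window and 8.09% of all genes in the table. The longer element, searched as an exact match, occurred in 0 of the 31, against 0.798% of the genes tested with a window. With so low a share over all genes, a count of 0 in 31 cannot show whether members have it less often. Lamp1, which encodes an abundant glycoprotein of the lysosomal membrane, held 4 cores, starting 61, 45, 28 and 15 bases before the start site. Mcoln1, which encodes a lysosomal calcium channel, held 2, starting 71 and 45 bases before it. The windows of Ctsk and Cd68, printed because these genes had the highest fitted changes among the members with a window, held none. Capitals mark the core in the windows of Lamp1 (chr8:13158911-13159210, plus strand), Mcoln1 (chr8:3500269-3500568, plus strand), Ctsk (chr3:95498960-95499259, plus strand) and Cd68 (chr11:69666121-69666420, minus strand):
Lamp1: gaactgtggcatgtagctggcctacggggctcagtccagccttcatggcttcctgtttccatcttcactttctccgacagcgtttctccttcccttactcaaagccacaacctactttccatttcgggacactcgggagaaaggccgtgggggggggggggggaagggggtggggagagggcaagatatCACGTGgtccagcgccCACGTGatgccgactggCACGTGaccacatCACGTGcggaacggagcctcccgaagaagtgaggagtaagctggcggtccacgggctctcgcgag
Mcoln1: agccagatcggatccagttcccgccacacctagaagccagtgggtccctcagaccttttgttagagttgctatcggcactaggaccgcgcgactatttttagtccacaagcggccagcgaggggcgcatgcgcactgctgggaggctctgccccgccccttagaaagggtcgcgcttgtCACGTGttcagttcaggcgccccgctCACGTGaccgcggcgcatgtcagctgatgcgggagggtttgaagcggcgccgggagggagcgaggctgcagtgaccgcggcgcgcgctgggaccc
Ctsk: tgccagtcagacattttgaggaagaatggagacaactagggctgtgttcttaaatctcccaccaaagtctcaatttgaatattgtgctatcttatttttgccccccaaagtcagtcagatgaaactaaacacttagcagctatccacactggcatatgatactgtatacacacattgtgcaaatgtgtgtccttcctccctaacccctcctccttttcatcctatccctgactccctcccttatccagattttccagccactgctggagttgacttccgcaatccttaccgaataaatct
Cd68: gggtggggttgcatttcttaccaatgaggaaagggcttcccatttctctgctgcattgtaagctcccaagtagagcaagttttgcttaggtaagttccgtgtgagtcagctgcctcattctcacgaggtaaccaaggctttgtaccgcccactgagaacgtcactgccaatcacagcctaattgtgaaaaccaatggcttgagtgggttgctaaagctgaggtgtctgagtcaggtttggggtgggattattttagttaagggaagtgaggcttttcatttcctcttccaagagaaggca
The 11 members with a core had a median log2 change of -0.08, and 5 of them had a value above 0. The 20 members with a window and no core had a median of 0.25, and 15 of them had a value above 0. A match is only a run of letters, and 0 genes of either set passed the test.

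**Figure D2:**
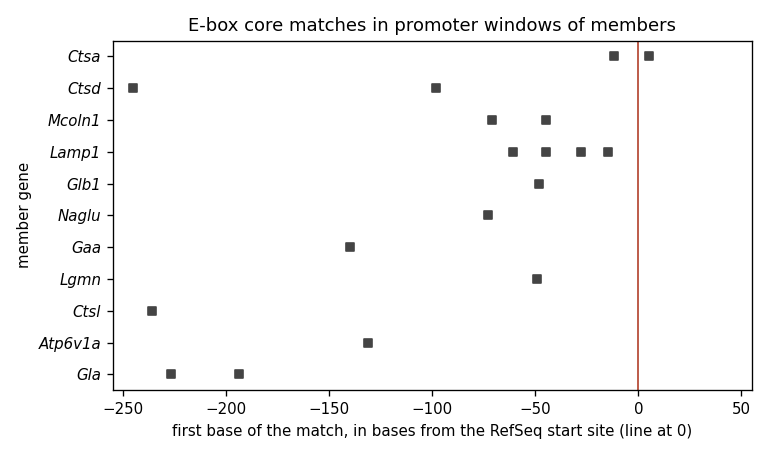
Squares mark the first base of each E-box core in the promoter windows of the 11 members that held one, by distance in bases from the RefSeq start site. Lamp1 has the most, 4, all within 61 bases before the start site.

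Among the proteases, cathepsin K had the highest log2 change of all members and the lowest level of the 11 per kilobase of exon. Ctsk, a collagen-degrading cysteine protease best known from osteoclasts (chromosome 3, 95499256 to 95509362, plus strand, mm10), had 3.03, 7.98 and 6.03 CPM in SS replicates 1, 2 and 3, against 1.73, 1.29 and 1.55 CPM in AS replicates 1, 2 and 3. Every SS library was above every AS library, and SS replicate 1 was nearest to them. These values rest on 23, 110 and 77 counts in SS and 15, 8 and 19 counts in AS. The log2 change was 1.89 (SE 0.520, 95% interval 0.74 to 3.04), with an adjusted p of 0.147 by edgeR, 0.261 by limma-voom and 0.0375 by DESeq2. Leaving out 1 library at a time, it ran from 1.56 to 2.18, and edgeR called it in 0 of those 6 fits.

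Its neighbour on the chromosome, Ctss (95526786 to 95556403, plus strand), encodes cathepsin S, which trims the invariant chain of class II antigen presentation in macrophages and dendritic cells. It had 43.5, 97.0 and 82.5 CPM in SS, against 54.7, 39.8 and 41.4 CPM in AS. SS replicates 2 and 3 were above all AS libraries, and SS replicate 1 was below AS replicate 1, so the groups overlapped. The log2 change was 0.72 (SE 0.312, edgeR adjusted p = 0.379), and was 0.98 without SS replicate 1 and 0.47 without SS replicate 2.

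The more abundant proteases had fitted changes in both directions, and none passed the test. Ctsb, a cysteine protease of broad specificity, had 952, 1769 and 1193 CPM in SS, against 873, 1053 and 996 CPM in AS (log2 change 0.42, edgeR adjusted p = 0.570), and 12.8% of its exon length overlaps exons of Fdft1. Ctsd, the main aspartic protease of the lysosome, had 422, 812 and 473 CPM in SS, against 476, 343 and 333 CPM in AS (log2 change 0.57, 95% interval -0.13 to 1.27, edgeR adjusted p = 0.484). Both were highest in SS replicate 2, without which their log2 changes were 0.13 and 0.21. Lgmn, the asparaginyl endopeptidase that processes other cathepsins, likewise averaged 186 ± 63.8 CPM in SS and 127 ± 34.4 CPM in AS (SD, n = 3 each), with 241 CPM in SS replicate 2.

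Ctsh and Ctsl had fitted changes below 0. Ctsh, an aminopeptidase, had 246, 302 and 272 CPM in SS, against 537, 319 and 303 CPM in AS. The groups did not overlap, but the nearest values, 302 CPM in SS replicate 2 and 303 CPM in AS replicate 3, were almost equal. Its log2 change was -0.50 (95% interval -1.15 to 0.15, edgeR adjusted p = 0.496), and -0.20 without AS replicate 1. Ctsl, a cysteine protease abundant in liver, averaged 802 ± 189 CPM in SS and 957 ± 92.5 CPM in AS (log2 change -0.25, edgeR adjusted p = 0.719). Of the others, Ctsa, a carboxypeptidase that also shields neuraminidase and beta-galactosidase, Ctsc, a dipeptidyl peptidase that activates granule proteases of leukocytes, Ctsz, a carboxypeptidase, and Tpp1, a tripeptidyl peptidase, had log2 changes of 0.23, 0.04, 0.12 and 0.23.

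**Figure D3:**
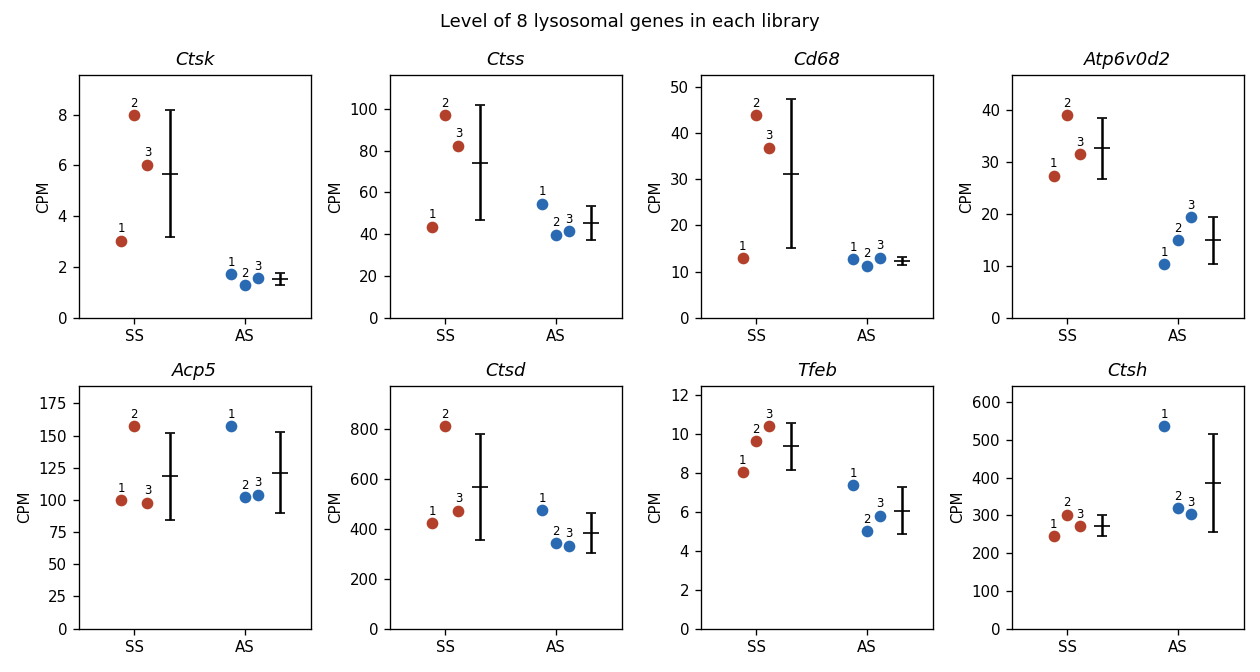
Points give the CPM of 8 genes in each library (numbered by replicate, SS left, AS right), with the mean and SD of 3 libraries beside them. For Ctsk and Atp6v0d2 every SS library lies above every AS library, while for Acp5 the means are 118 and 121 CPM.

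Of the 9 glycan-degrading hydrolases, 0 passed the test, and 4 had a fitted log2 change above 0 and 5 below (median -0.0021, range -0.21 to 0.67). Hexa, the alpha subunit of hexosaminidase A that degrades GM2 ganglioside, had the highest value. It had 65.5, 129 and 92.2 CPM in SS, against 81.8, 49.3 and 49.3 CPM in AS (log2 change 0.67, 95% interval -0.03 to 1.36, edgeR adjusted p = 0.413), and 12.8% of its exon length overlaps exons of Tmem202 on the opposite strand. Gusb, beta-glucuronidase, had 24.5, 38.0 and 57.4 CPM in SS, against 23.8, 32.5 and 24.0 CPM in AS, and its log2 change of 0.58 was 0.22 without SS replicate 3. SS replicate 3 held the highest value of Gusb and by far the lowest of Idua.

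Idua, alpha-iduronidase of glycosaminoglycan breakdown, had 65.1, 47.3 and 13.2 CPM in SS, against 42.4, 54.3 and 43.8 CPM in AS. The log2 change was -0.17 with all libraries, 0.25 without SS replicate 3 and -0.63 without SS replicate 1, so the sign rested on which SS library was used. Its exons share 3.35% of their length with Slc26a1 and 2.95% with Dgkq on the opposite strand. Man2b1, an alpha-mannosidase of glycoprotein breakdown, and Neu1, the lysosomal sialidase, were nearest to no difference. Man2b1 averaged 93.2 ± 15.9 CPM in SS and 92.9 ± 6.28 CPM in AS (95% interval of the log2 change -0.51 to 0.52), and Neu1 averaged 45.7 ± 7.65 and 45.8 ± 4.60 CPM in SS and AS (interval -0.53 to 0.52; SD, n = 3 each). Gaa, the glycogen-degrading acid glucosidase, Gla, alpha-galactosidase A, Glb1, beta-galactosidase, and Naglu, an enzyme of heparan sulfate breakdown, had log2 changes of -0.08, 0.17, -0.13 and -0.21.

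Genes of lipid breakdown and cholesterol egress did not pass the test either. Psap, the precursor of the saposins that present sphingolipids to their hydrolases, had 688, 1067 and 771 CPM in SS, against 771, 674 and 596 CPM in AS (log2 change 0.31, 95% interval -0.30 to 0.91, edgeR adjusted p = 0.659). Lipa, lysosomal acid lipase, averaged 228 ± 37.3 CPM in SS and 201 ± 21.9 CPM in AS (log2 change 0.18). Npc2, which carries free cholesterol inside the lysosome, and Npc1, the membrane protein that takes it over, had log2 changes of 0.27 and 0.06. Npc1 had 94.3, 72.7 and 159 CPM in SS, against 91.3, 122 and 99.8 CPM in AS, and its log2 change was -0.33 without SS replicate 3. Smpd1, acid sphingomyelinase, had a log2 change of -0.17, which was 0.08 without AS replicate 1.

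Acp5, the tartrate-resistant acid phosphatase that marks osteoclasts and some macrophages, had 99.8, 157 and 97.9 CPM in SS, against 157, 102 and 104 CPM in AS. In each genotype 1 library stood near 157 CPM and the other two between 97.9 and 104 CPM (log2 change -0.03, 95% interval -0.67 to 0.61, edgeR adjusted p = 0.973). Grn, which encodes progranulin, a regulator of lysosomal function, averaged 272 ± 81.5 CPM in SS and 225 ± 4.86 CPM in AS (log2 change 0.27).

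Among membrane proteins, Cd68 stood apart from the structural glycoproteins Lamp1 and Lamp2. Cd68, a heavily glycosylated protein of macrophage lysosomes (chromosome 11, 69664213 to 69666153, minus strand), had 12.9, 43.8 and 36.8 CPM in SS, against 12.7, 11.3 and 13.0 CPM in AS. SS replicates 2 and 3 were well above the AS libraries, whereas SS replicate 1 lay among them. The log2 change was 1.34 (SE 0.405, 95% interval 0.45 to 2.24), with an adjusted p of 0.193 by edgeR, 0.338 by limma-voom and 0.0655 by DESeq2. Without SS replicate 1 it was 1.70 and was called by edgeR (adjusted p = 0.0363, in a fit that called 0.712% of all genes, 0.596% higher and 0.116% lower), and with any 1 library removed it ran from 1.01 to 1.70, and edgeR called it only when SS replicate 1 was the one removed.

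Lamp1 had 542, 613 and 476 CPM in SS, against 595, 572 and 616 CPM in AS (log2 change -0.13, 95% interval -0.67 to 0.41), and its sign turned with library totals in place of trimmed-mean factors (0.14). Lamp2, whose isoforms include the receptor of chaperone-mediated autophagy, had 544, 508 and 577 CPM in SS, against 879, 582 and 619 CPM in AS. The SS libraries all lay below the AS libraries, by a gap of only a few CPM between SS replicate 3 and AS replicate 2, and the log2 change was -0.35 (95% interval -0.94 to 0.23, edgeR adjusted p = 0.595), or -0.16 without AS replicate 1. Scarb2, the receptor that brings beta-glucocerebrosidase to the lysosome, had 48.8, 56.3 and 79.3 CPM in SS, against 47.0, 43.8 and 46.6 CPM in AS. The groups did not overlap and SS replicate 3 was the highest (log2 change 0.43, edgeR adjusted p = 0.499, and 0.19 without SS replicate 3). Mcoln1 had a log2 change of -0.14, which was 0.16 with library totals.

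Of the 3 proton pump subunit genes, Atp6v0d2 had the highest fitted change, and differences between the subunits were not tested. Atp6v0d2, an isoform of the membrane sector's d subunit found in macrophages and osteoclasts (chromosome 4, 19876841 to 19922605, minus strand), had 27.3, 38.9 and 31.5 CPM in SS, against 10.2, 14.98 and 19.4 CPM in AS. Every SS library was above every AS library. The log2 change was 1.13 (SE 0.305, 95% interval 0.45 to 1.80), with an adjusted p of 0.144 by edgeR, 0.174 by limma-voom and 0.0425 by DESeq2, and it ran from 0.91 to 1.37 with 1 library left out at a time. The catalytic subunit gene Atp6v1a and the partner subunit gene Atp6v1b2, which the pump uses in many cell types, had log2 changes of 0.25 and 0.22 (95% intervals -0.33 to 0.83 and -0.32 to 0.75). That of Atp6v1a was -0.02 without SS replicate 3. Tfeb, the master regulator of lysosomal genes, had 8.05, 9.64 and 10.4 CPM in SS, against 7.37, 4.99 and 5.81 CPM in AS. The groups did not overlap (log2 change 0.63, SE 0.338, 95% interval -0.12 to 1.38, edgeR adjusted p = 0.466), and the estimate ran from 0.49 to 0.78 with 1 library left out.

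**Figure D4:**
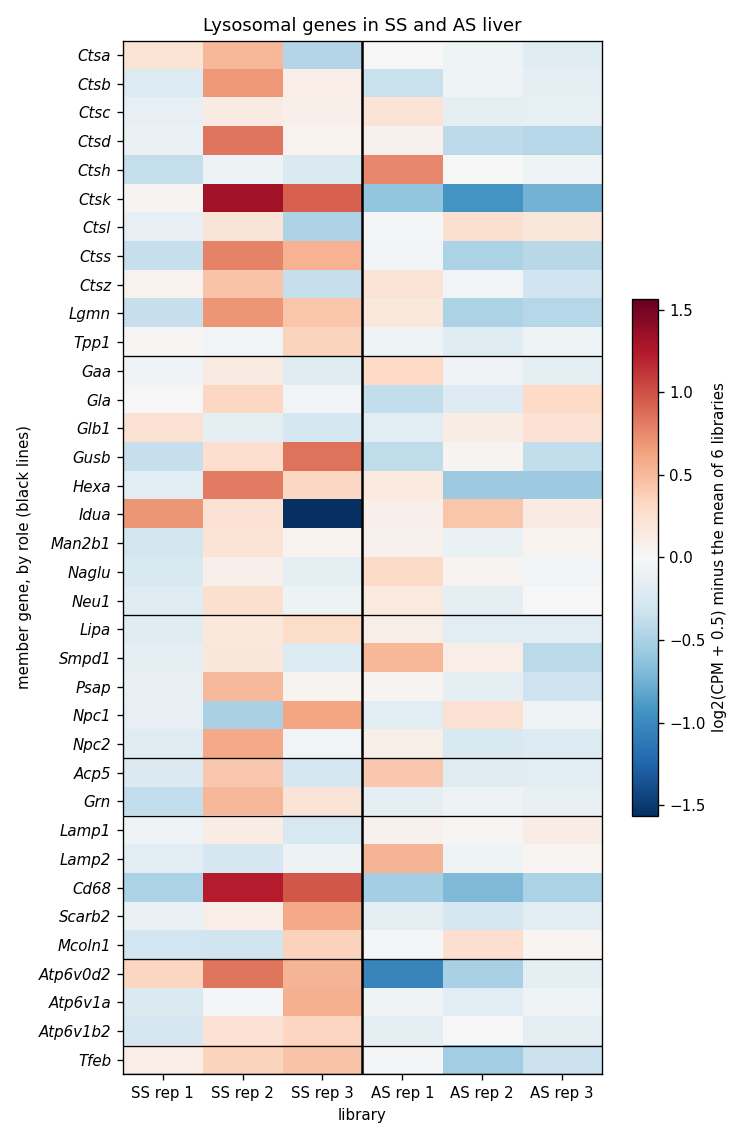
Colours show log2(CPM + 0.5) of each gene minus its mean over the 6 libraries, SS left and AS right, with genes in role order. SS replicate 2 holds the highest value of 17 genes and SS replicate 3 that of 9, while AS replicates 2 and 3 hold that of 1 each.

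Libraries of 1 genotype also differed from each other. SS replicate 2 held the highest value of 17 of the 36 genes, or 47.2%, against 14.5% of all genes tested. SS replicate 3 held that of 9, or 25.0%, against 29.7% of all genes tested. SS replicate 2 was highest for Ctsb, Ctsd, Ctss, Lgmn, Hexa, Psap, Npc2, Grn and Cd68 among others, and SS replicate 3 for Gusb, Npc1, Scarb2, Mcoln1, Atp6v1a, Atp6v1b2 and Tfeb. The median SD of log2(CPM + 0.5) was 0.35 over SS and 0.19 over AS libraries for the members, and 0.43 and 0.30 for all genes tested. AS replicates 2 and 3 were by far the closest pair of libraries (3.98 chi-square units per gene). Whether they came from separate animals is not stated, so SDs over AS may understate the spread between animals. The summed level of the 36 genes was 6487, 9303 and 7066 CPM in SS, against 7603, 6856 and 6624 CPM in AS, so the groups overlapped. As an unscaled share of gene counts it was 0.705%, 0.936% and 0.853% in SS, against 0.633%, 0.638% and 0.640% in AS, with no overlap. The 2 scales differ because trimmed-mean factors were above 1 in the SS libraries and below 1 in the AS libraries: with library totals alone the median log2 change of all genes tested was 0.36 and that of the members 0.48, so members stood above all genes by about the same amount on both scales.

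Per kilobase of exon, Psap had the highest level of the members, at 307 ± 72.7 CPM per kb in SS and 248 ± 31.9 CPM per kb in AS (SD, n = 3 each). Ctsz, Lamp1, Ctsd and Ctsb followed, with 263 ± 71.9, 203 ± 25.6, 242 ± 90.3 and 216 ± 69.3 CPM per kb in SS and 242 ± 43.1, 222 ± 8.15, 163 ± 33.8 and 161 ± 15.2 CPM per kb in AS. In SS, neighbours in this order by mean level did not differ beyond their SDs, and in AS Lamp1 lay above Ctsd by more than their SDs. Tfeb, Gla and Ctsk had the lowest levels, with 1.65 ± 0.212, 2.48 ± 0.373 and 3.76 ± 1.65 CPM per kb in SS and 1.07 ± 0.213, 2.20 ± 0.621 and 1.01 ± 0.146 CPM per kb in AS. Members with the highest fitted differences therefore included some of low and middle level, with Ctsk at rank 34, Atp6v0d2 at rank 28 and Cd68 at rank 18 of 36 by mean level per kb.

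The 5 members known from macrophages and osteoclasts (Ctsk, Ctss, Cd68, Acp5 and Atp6v0d2) had a median log2 change of 1.13, and the other 31 members a median of 0.17. The group was chosen with earlier results of these data known, and the difference between these medians was not tested. The summed level of the 5 was 187, 345 and 255 CPM in SS, against 237, 170 and 179 CPM in AS, so the genotypes overlapped. Marker levels of several other cell types were higher in SS, and those of macrophages are given first. Kupffer cells, the resident macrophages of liver, were represented by 12 markers, all detected, with a summed level of 1225, 2921 and 1968 CPM in SS, against 1435, 1137 and 1031 CPM in AS; 0 of the 12 were called and 11 had a log2 change above 0 (median 0.63). Markers of monocytes and recruited macrophages were 12 in all, and all were detected. They summed to 530, 875 and 605 CPM in SS, against 416, 294 and 283 CPM in AS. Of the 12, 5 were called higher, against 0.911% of all genes tested, and 12 had a log2 change above 0 (median 1.63). With 1 library left out, 1 to 3 of the 12 were called, and Gpnmb was called in each of those 6 fits. Gpnmb, Mmp12, Trem2, Ccr2 and Itgax are the 5, and Gpnmb had 11.3, 18.1 and 41.6 CPM in SS, against 0.576, 0.161 and 0.327 CPM in AS (log2 change 5.97, SE 0.645, edgeR adjusted p = 0.00218).

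For Cd68 and Ctss, as for the sum of the Kupffer cell markers, SS replicate 2 had the highest level and SS replicate 3 the next. SS replicate 1 had a level among the AS libraries. This order was not particular to them, since Ctsb, Lgmn, Hexa and Psap, outside the macrophage and osteoclast group, had it too. For Psap, SS replicate 3 and AS replicate 1 were almost equal (771 CPM each). Ctsd and Npc2 were also highest in SS replicate 2, but AS replicate 1 was next. It had 476 and 178 CPM for these genes, against 473 and 161 CPM in SS replicate 3. Of 6 osteoclast markers, 2 had enough counts to test and 0 were called, and their sum was 20.6, 16.9 and 19.7 CPM in SS, against 11.2, 9.67 and 8.50 CPM in AS. The calcitonin receptor gene Calcr, one of those markers, had 13 counts in SS replicate 1 and 0 in the other 5 libraries. Markers of other cell types were called as well. Of the markers tested, 5 of 6 of dividing cells were called higher (median log2 change 3.78), as were 4 of 8 of red cell precursors (3.99). So were 2 of 6 of neutrophils (4.49), 2 of 8 of stellate cells and fibroblasts (0.76) and 1 of 4 of cholangiocytes (0.56). Of these markers, 0 were called lower. More had a fitted log2 change above 0: 6 of 6, 7 of 8, 6 of 6, 8 of 8 and 4 of 4, in the same order. Dividing cell markers summed to 75.7, 108 and 134 CPM in SS, against 10.4, 8.54 and 7.28 CPM in AS. Those of red cell precursors summed to 249, 459 and 499 CPM in SS, against 45.5, 59.4 and 63.4 CPM in AS. Neutrophil markers summed to 31.7, 87.6 and 23.8 CPM in SS, against 6.56, 5.15 and 3.84 CPM in AS, with the highest value in SS replicate 2. Every SS library was above every AS library for these 3 sums, as for those of stellate cells (442 to 654 CPM in SS, against 316 to 386 CPM in AS) and cholangiocytes (19.2 to 54.0 CPM in SS, against 11.4 to 17.9 CPM in AS). Of T, B and plasma cell markers (5 tested), sinusoidal endothelial markers (6) and hepatocyte markers (9), 0 were called, with medians of 1.88, 0.18 and -0.23. The part that any of these cell types had in the values of the lysosomal genes was not tested.

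**Figure D5:**
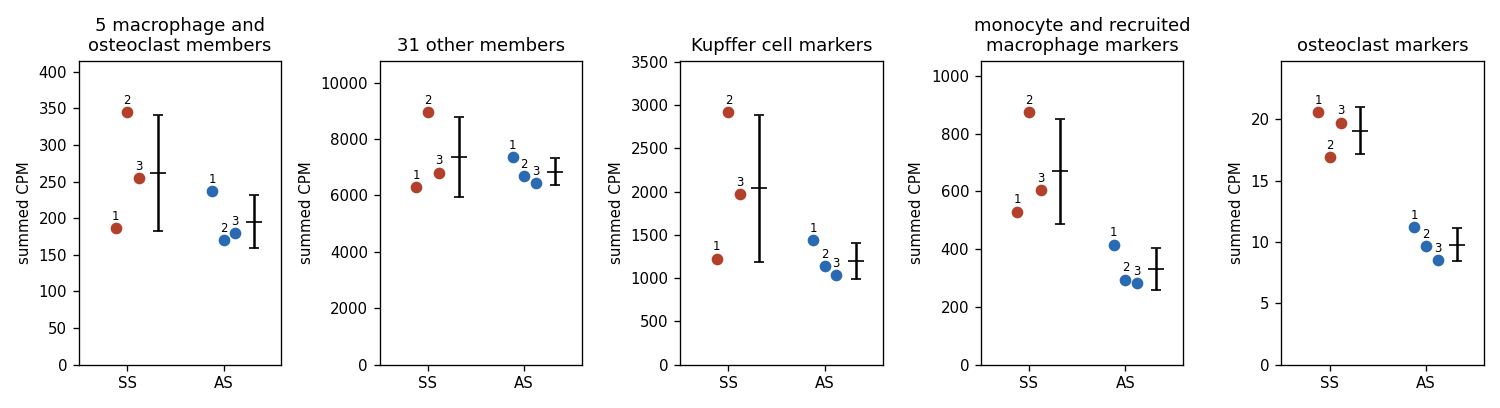
Points give the summed CPM of 5 gene lists in each library (numbered by replicate, SS left, AS right), with the mean and SD of 3 libraries beside them. The sums of both sets of members and of the Kupffer cell markers overlap between genotypes. Those of the recruited macrophage and osteoclast markers do not.

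Other genes of the lysosome, listed by function, gave 2 calls. Among 22 other lysosomal membrane proteins tested, Cd63 and Laptm5 were called higher and 0 were called lower, against 0.911% of all genes called higher. The median log2 change was 0.07, with 13 genes above 0 and 9 below. Cd63, a tetraspanin of late endosomes that many cell types carry, had 35.9, 67.9 and 48.2 CPM in SS, against 15.4, 15.8 and 13.98 CPM in AS (log2 change 1.75, SE 0.291, edgeR adjusted p = 0.0241). Laptm5, a lysosomal transmembrane protein of blood cells, had 56.2, 81.9 and 70.2 CPM in SS, against 31.9, 27.9 and 30.6 CPM in AS (log2 change 1.21, SE 0.241, edgeR adjusted p = 0.0486). For both, every SS library was above every AS library. The call of Cd63 ended without SS replicate 2 or any 1 AS library (adjusted p 0.0985 to 0.147), that of Laptm5 whichever of the 6 libraries was removed (0.0511 to 0.303), and limma-voom called neither (0.0574 and 0.0847).

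Of 31 other lysosomal hydrolases tested, 0 were called by edgeR and 5 were higher at an unadjusted p under 0.05 (median log2 change 0.12). Galns, which removes sulfate from keratan sulfate, had the lowest p, with 15.04, 15.5 and 11.0 CPM in SS, against 5.76, 3.06 and 3.03 CPM in AS (log2 change 1.80, SE 0.381, adjusted p = 0.0617 by edgeR, 0.00290 by DESeq2 and 0.0976 by limma-voom). Of 16 other proton pump subunits, 0 were called (median 0.03, 1 higher at an unadjusted p under 0.05), and the lowest p was that of Tcirg1, an osteoclast and macrophage isoform of the membrane sector, with 99.9, 83.0 and 49.5 CPM in SS, against 29.3, 49.3 and 51.3 CPM in AS (log2 change 0.84, edgeR adjusted p = 0.318).

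Hydrolase sorting genes (11 tested), relatives of TFEB with the mTORC1 inputs at the lysosome (16 tested) and autophagy genes (15 tested) gave 0 calls each, with medians of 0.12, 0.04 and -0.15. Gnptab, which builds the mannose 6-phosphate tag of hydrolases, had the lowest p of the first list (log2 change 0.75, edgeR adjusted p = 0.375). Tfec, a relative of Tfeb expressed in macrophages, had that of the second, with 7.92, 10.2 and 5.01 CPM in SS, against 2.99, 2.74 and 2.21 CPM in AS (log2 change 1.55, SE 0.431, edgeR adjusted p = 0.155). Atg3, a conjugating enzyme that lipidates LC3, had that of the third, with 62.8, 66.4 and 88.0 CPM in SS, against 102, 115 and 111 CPM in AS (log2 change -0.60, edgeR adjusted p = 0.333). At an unadjusted p under 0.05, 2, 2 and 0 genes of these lists were higher and 0, 0 and 2 lower.

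When the libraries at the ends of the first principal component (SS replicate 3 and AS replicate 1) were removed, edgeR called 5.21% of all genes tested (2.72% higher and 2.49% lower) and again 0 of the 36 lysosomal genes. The log2 changes were then 1.95 for Ctsk, 1.23 for Cd68, 0.94 for Atp6v0d2 and 0.80 for Ctss (edgeR adjusted p = 0.117, 0.167, 0.0692 and 0.182). Cd63 and Laptm5 were called in that fit (adjusted p = 0.0136 and 0.0163), as were the hydrolase genes Galns and Dnase2a with Tfec and Tcirg1, higher (0.00926, 0.0475, 0.0416 and 0.0281), and the hyaluronidase gene Hyal1 with Atg3, lower (0.0245 and 0.0254). The log2 change of Hyal1 was -1.93 in that fit and 0.26 with all 6 libraries (edgeR adjusted p = 0.911). At 3 libraries per genotype a 95% interval reached from 0.50 to 1.15 log2 units on either side of a member's estimate, so differences smaller than these could not be told from 0 at this replication.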

How the data were processed

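Liver RNA of 3 SS and 3 AS libraries was compared. For each library the authors deposited unnormalised counts of reads by gene symbol; reads were aligned with HISAT2 to mm10 and counted with HTSeq, per the submitters' processing notes. Tool versions, annotation and the strand setting are not given in the sources used here, so reads of overlapping genes cannot be assigned with certainty. Besides Ctsb, Hexa and Idua, Ctsa shares exon length with Pltp (10.5%) and Neurl2 (6.87%), Lamp1 with Grtp1 (9.31%) and Glb1 with Tmppe (5.49%). Grn (1.96%) and Ctsz (0.69%) share less with counted genes. Ctsd, Ctsl, Acp5 and Npc1 overlap genes that were not counted, Ctsd by 34.4% with Gm49369. The 5 lines of the counter that name no gene were left out. Unassigned reads (no feature) were 53.9%, 43.0% and 43.8% of all counter entries in SS replicates 1, 2 and 3. They were 40.7% to 42.2% in AS, so SS replicate 1 stood apart from all other libraries.

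Genes were kept by edgeR's filter (minimum count 10, minimum total 15), which left 12622 genes with 99.8% of gene counts. The test was edgeR 4.0.16 (R 4.3.3), robust quasi-likelihood, trimmed-mean factors, genotype as the only term, Benjamini-Hochberg adjustment over all genes and a threshold of 0.05; the script was tested on simulated counts. SE is the log2 change divided by the square root of F. DESeq2 1.42.0, limma-voom (limma 3.58.1), other scalings and filters, left-out libraries and a replicate block were alternatives. Gene positions are those of GENCODE M21, and promoters those of RefSeq.

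The members and gene lists were chosen with earlier results of these data known. All 36 members are named; fuller values go to those with the lowest p in each role or whose call changes when 1 library is left out, and other lists name called genes, or the gene with the lowest p. Values of further members were added after they were seen. With 3 libraries per genotype, the number of libraries limits the precision.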

Additional observations from a re-analysis of the deposited data

How the results depend on the processing

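The number of members called higher was 0, and was 2 with a replicate block (Cd68 and Atp6v0d2, edgeR adjusted p = 0.0348 and 0.0271), 2 with DESeq2 and 0 to 1 with 1 library left out. The labels do not say whether libraries with the same replicate number were paired. Correlations of same-numbered deviations were 0.0497, -0.12 and 0.193, and those of differently numbered ones ran from -0.224 to 0.241. With 3 libraries per genotype these values cannot decide whether the number marks a pairing. No member was called lower in any of the 17 alternatives. The median log2 change of the members, 0.20, was 0.48 with library totals and 0.03 to 0.24 with 1 library left out. Over all genes tested, 122 were called, against 217 with no filter, 460 with the replicate block, 453 with DESeq2, 31 with limma-voom, 662 without AS replicate 1 and SS replicate 3, 31 with AS replicates 2 and 3 summed, and 22 to 99 with 1 library left out.

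The direction held in all 17 alternatives for 20 members and turned in at least 1 for 16, none of which had a main log2 change beyond 0.27 in size. Without AS replicate 1 and SS replicate 3 the turned log2 changes were 0.17 for Smpd1, 0.11 for Neu1, -0.41 for Npc1, 0.19 for Idua, 0.15 for Gaa and 0.32 for Acp5. With library totals they were 0.20 for Gaa, 0.0665 for Naglu, 0.13 for Glb1, 0.0688 for Idua, 0.16 for Mcoln1, 0.27 for Neu1, 0.14 for Lamp1, 0.11 for Smpd1 and 0.24 for Acp5. With AS replicates 2 and 3 summed they were -0.0349 for Man2b1 and -0.0313 for Ctsc, with DESeq2 -0.0396 for Man2b1 and -0.0033 for Ctsc, with limma-voom -0.013 for Npc1 and -0.0126 for Man2b1, with relative log expression factors -0.0035 for Ctsc and -0.0399 for Man2b1, with no filter -0.0143 for Man2b1, with the replicate block -0.0087 for Man2b1 and -0.0078 for Npc1, and with upper-quartile factors 0.0103 for Neu1.

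With 1 library left out, the ranges of members that turned were -0.39 to 0.0759 for Smpd1, -0.16 to 0.0854 for Neu1, -0.33 to 0.27 for Npc1, -0.31 to 0.19 for Acp5, -0.19 to 0.0631 for Gaa, -0.0463 to 0.16 for Ctsc, -0.12 to 0.13 for Man2b1, -0.12 to 0.29 for Ctsz, -0.0164 to 0.42 for Npc2, -0.0086 to 0.45 for Ctsa, -0.63 to 0.25 for Idua and -0.0248 to 0.40 for Atp6v1a. The cause was not tested.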
